A study of Mus musculus with 2 samples.

Results

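The genes described here encode the ligands, receptors, Smads, antagonists and target proteins of BMP, activin and TGF-β signaling, and they were listed by name and role. No signal enters that rule, but the list was drawn up with earlier results of these data known. Of the 52 genes listed, 50 had at least 1 probe set annotated to that gene alone, out of 18193 named genes on the array, and these held 113 probe sets. *Bmp3* and *Gdf6* had no such probe set and were not analysed here. Signals came from superficial zone (SFZ) cells of articular cartilage, isolated from the femoral and tibial joint surfaces, and from costal chondrocytes (CC) of the ribs. Both cell types came from ICR mice at postnatal day 4 and were cultured in DMEM with 10% FBS. Each was measured on 1 Affymetrix array from 100 ng of total RNA, and the sources used here do not say how many animals stood behind an array. With 1 array per cell type no test was possible, no p-value is given, and no difference below has a replicate check. The arrays also compare limb with rib, so the zone of the cartilage and the body site cannot be told apart.

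BMPs and their relatives the GDFs bind a pair of type I and a pair of type II serine/threonine kinase receptors. For BMPs and some GDFs, the activated type I receptor phosphorylates Smad1, Smad5 and Smad9. TGF-β and the activins use members of the same receptor family and act through Smad2 and Smad3, and Smad4 partners with both branches. Secreted antagonists such as noggin, gremlin and the chordins bind BMPs outside the cell, latent TGF-β binding proteins hold TGF-β in the matrix, and Smad6, Smad7, the Id genes and *Bambi* are induced by the pathway in many cells. In cartilage, BMP signaling drives chondrogenesis and growth plate maturation, and TGF-β signaling maintains articular chondrocytes.

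The arrays showed 16 of the 50 measured genes higher in CC and 0 higher in SFZ cells. A gene counted as higher in CC where its CC signal was over 100 and its CC/SFZ ratio was over 2 on its brightest probe set, and the mirror image was used for SFZ cells. Over all 18193 named genes the same thresholds were passed by 5.41% in CC and by 1.18% in SFZ cells. Among the 8986 genes with a signal over 100 on either array these shares were 11.0% in CC and 2.38% in SFZ cells, and 37 of the 50 genes had such a signal, of which the same 16 make up 43.2%. Of the 113 probe sets, 23 were higher in CC, or 20.4%, beside 4.33% of all probe sets named for 1 gene. None of the 113 was higher in SFZ cells, beside 0.947% of all. In such bulk RNA, fewer cells of a type and less RNA per cell cannot be told apart. The genes higher in CC were the antagonists *Chrdl1*, *Grem1*, *Fst*, *Fstl1* and *Bambi*, the ligands *Bmp4*, *Tgfb2* and *Tgfb3*, the matrix proteins *Ltbp1* and *Ltbp2*, the receptors *Acvr1b* and *Tgfbr3*, the inhibitory Smad *Smad6*, and *Id1*, *Id3* and *Id4*.

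**Figure D1:**
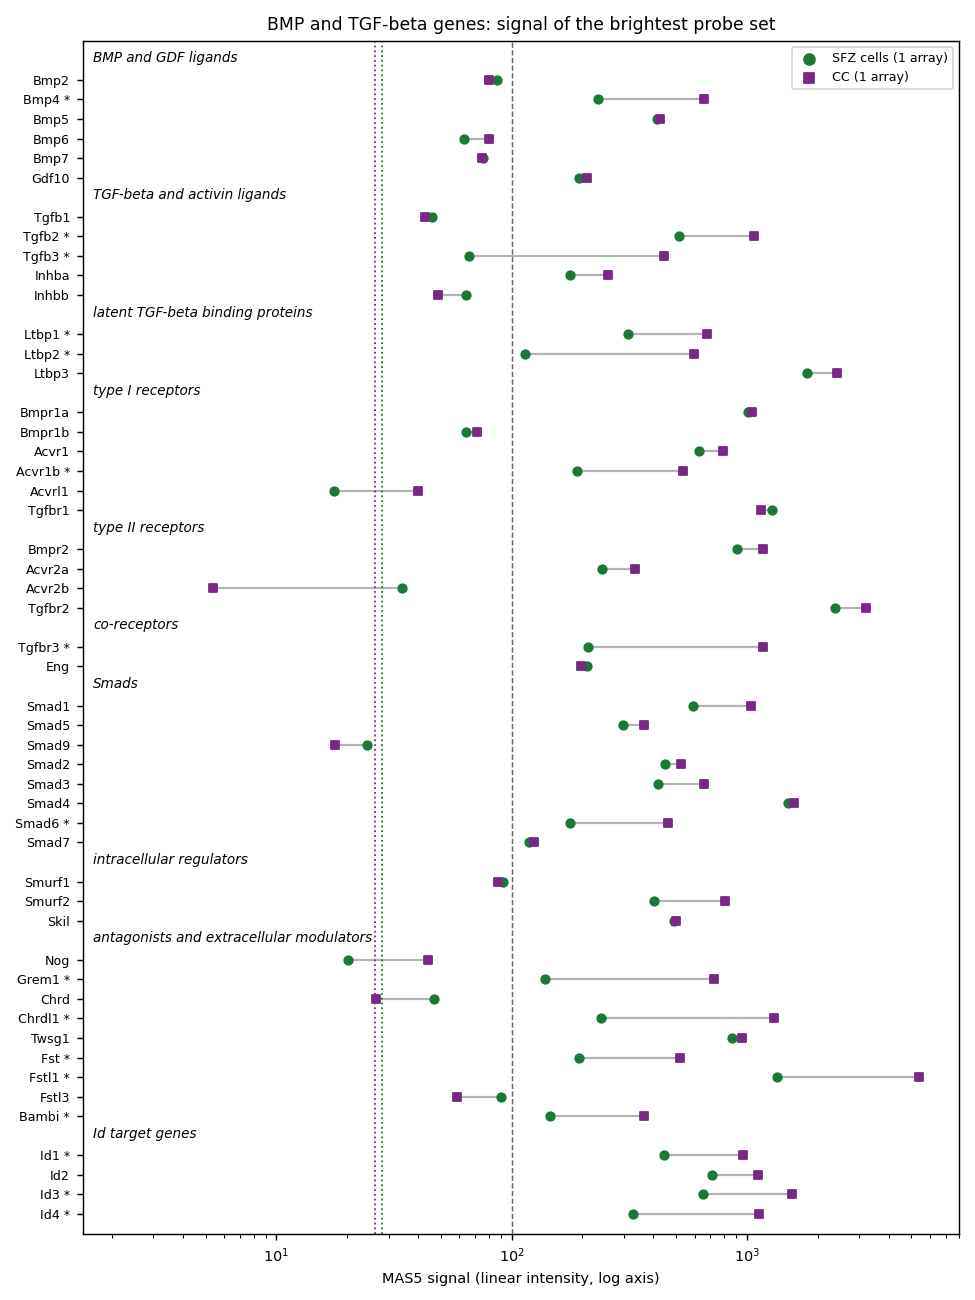
MAS5 signals of the brightest probe set of each of the 50 measured genes, on a log axis, with circles for the SFZ array and squares for the CC array. The background levels of 28.2 and 26.2 are dotted, the minimum signal of 100 is dashed, and an asterisk marks each of the 16 genes higher in CC, where the square lies right of the circle.

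The deposited values are MAS5 signals, linear intensities of a probe set, and a signal of 1 probe set cannot be set against that of another. Where a pair of signals is given for a gene, that of SFZ cells comes first. Background was set at the 95th percentile of 82 olfactory, vomeronasal, taste and trace amine receptor probe sets, genes that cartilage cells are not known to use, which gave 28.2 for SFZ cells and 26.2 for CC. Of the 50 genes, 46 were above background on both arrays, 3 on 1 array, and *Smad9* on neither. Over the 49 genes above background on at least 1 array, the log2 ratio (SFZ cells over CC) had a median of -0.43, with the quartiles at -1.25 and -0.05. Over all 12466 named genes above background it was -0.21, with the quartiles at -0.57 and 0.11. The genes thus lay 0.23 lower on the log2 scale than the genes of the array at large with the signals as deposited and 0.29 lower after quantile normalization. A constant scaling of an array cannot change this gap. Where a gene had several probe sets above background on both arrays, their log2 ratios differed with a pooled SD of 0.21 over 25 genes and 68 probe sets. That SD covers differences between probe sets and holds nothing of the spread between cultures or animals.

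**Figure D2:**
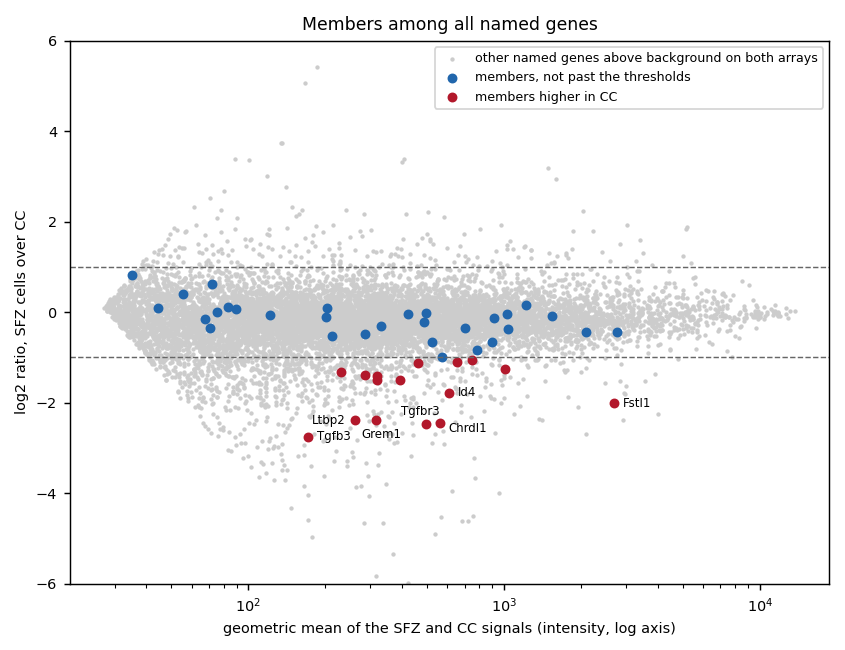
Log2 ratio of SFZ cells over CC against the geometric mean signal (log axis) for genes above background on both arrays, with grey points for other named genes, blue points for pathway genes within the thresholds and red points for the 16 higher in CC. The dashed lines stand at a ratio of 2 both ways, 5 grey genes lie beyond the axis, and the red point furthest down is *Tgfb3* at -2.75.

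Scaling mattered for the genes near the threshold. Over all named genes, 82.2% of the calls were in CC with the signals as deposited, 69.4% with equal medians and 64.7% once quantile normalized. Of the 16 pathway genes, 13 passed in CC under both, and *Tgfb2*, *Ltbp1* and *Id1* did not. The CC thresholds were then passed by 4.14% of all named genes with equal medians and by 3.78% once quantile normalized.

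**Figure D3:**
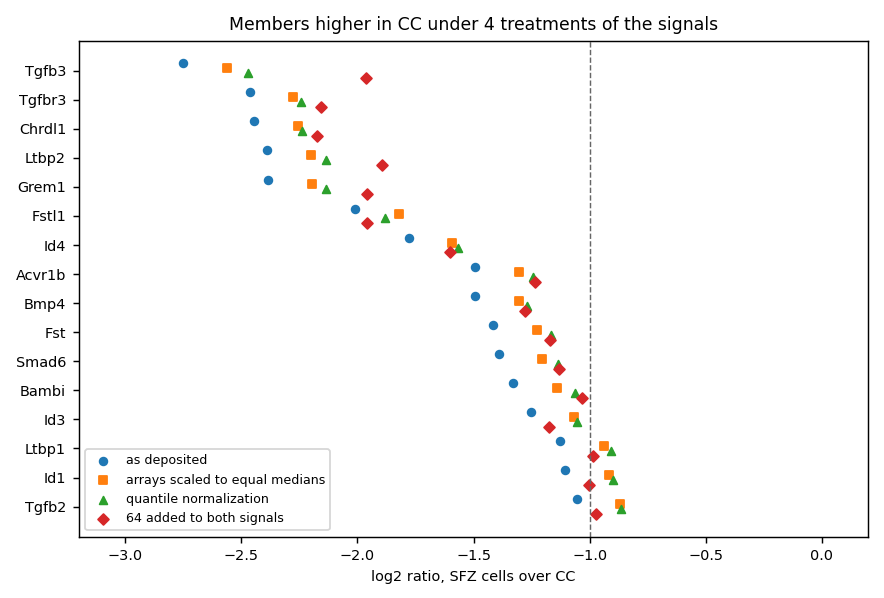
Log2 ratios of SFZ cells over CC of the 16 genes higher in CC, with the signals as deposited, scaled to equal medians, quantile normalized, or with 64 added to both. The dashed line marks a CC/SFZ ratio of 2, and only *Ltbp1*, *Id1* and *Tgfb2* have points on its right.

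The labels were checked against marker lists. Of 8 chondrocyte genes 2 were higher in SFZ cells, *Matn1* and *Snorc*, and 0 in CC, with summed signals of 53545 and 38523. The median log2 ratio of this list was 0.61, or 0.82 above that of all genes, and 5 of the 8 had a higher signal in SFZ cells. *Col9a1* was at 11711 in SFZ cells against 11816 in CC, *Col2a1* at 8251 and 9074, *Matn1* at 9989 and 2692, and *Snorc* at 3818 and 1754. *Prg4*, encoding lubricin of the joint surface, was at 323 and 73.6. It was the only 1 of 8 superficial zone genes higher in SFZ cells, whereas 2, *Vcam1* and *Thbs4*, were higher in CC. The summed signals of this list were 1108 in SFZ cells and 1762 in CC. Over its 7 genes above background the median log2 ratio was -0.88, with 4 ratios toward CC and 3 toward SFZ cells. Markers of other cell types moved with the CC array. All 8 skeletal muscle genes were higher there, with a summed signal of 217 in SFZ cells and 24323 in CC, and *Actc1* was at 28.7 and 8228. All 4 measured adipocyte genes were, with sums of 1007 and 10972, and *Fabp4* was at 42.7 and 6039. Of 7 fibroblast and perichondrial genes 5 were, with sums of 7113 and 16504, *Postn* was at 138 and 3394, and *Col3a1*, the brightest of the list, was at 6421 and 8516 and did not pass. Of 6 smooth muscle and pericyte genes 3 were, with sums of 2940 and 9111, and *Acta2* was at 822 and 5343. Of 7 macrophage and leukocyte genes 4 were, with sums of 449 and 2024, and *Lyz2* was at 232 and 1432. Of 5 osteoblast genes 1 was, *Ibsp*, at 15.5 and 375, with sums of 134 and 531 for the list. The muscle regulators *Myog* and *Myod1* and the adipocyte genes *Pparg* and *Adipoq*, picked out with their values known, were under background on the SFZ array. None of 5 measured housekeeping genes passed. The part of these other cell types in the 16 genes higher in CC was not tested.

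Antagonists and extracellular modulators had the lowest median log2 ratio of the roles, at -1.33, and 5 of 9 measured were higher in CC. That median is the value of *Bambi*, which is counted further below with the membrane proteins. Close to it lay the medians of co-receptors at -1.19, Id genes at -1.18 and latent TGF-β binding proteins at -1.13. The order of these groups is not resolved by these values. *Chrdl1*, encoding a chordin-like BMP antagonist, gave 240 in SFZ cells against 1308 in CC, 5.45-fold higher in CC. Its 3 probe sets above background on both arrays were all higher in CC, from 4.53-fold to 7.17-fold, and a further probe set was above background in CC alone, at 13.1 and 37.6. *Grem1*, encoding the BMP antagonist gremlin, was at 138 in SFZ cells against 722 in CC, 5.22-fold higher on its only probe set. *Fstl1*, a secreted follistatin-like glycoprotein, was at 1337 in SFZ cells against 5389 in CC, and its probe sets gave 4.03-fold and 4.47-fold. *Fst*, encoding follistatin, which binds activins, was at 194 and 518, 2.67-fold higher in CC, and 2.46-fold on its second probe set. *Bambi*, a pseudoreceptor without a kinase domain, was at 145 and 365, a 2.51-fold difference.
The other 4 did not pass. *Twsg1*, which modulates chordin, was close to equal at 868 and 952. *Nog*, encoding noggin, was above background in CC alone, at 44.0 in CC against 20.2 in SFZ cells, or at least 1.56-fold higher in CC. *Chrd*, encoding chordin, had the opposite order at 46.9 in SFZ cells against 26.4 in CC, close to the background level, and *Fstl3*, a follistatin relative, was at 89.7 and 58.4. These last values all lay under the minimum signal.

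The Id genes encode helix-loop-helix proteins that lack a DNA-binding region, block other such factors, and are classical BMP targets. Their signals were all higher on the CC array, and 3 of 4 passed, with a median log2 ratio of -1.18. *Id4* was at 328 in SFZ cells against 1127 in CC, 3.43-fold higher in CC, and its 3 probe sets ran from 3.43-fold to 4.22-fold. *Id3* was at 650.1 and 1551, a 2.39-fold difference, and *Id1* at 446 and 959, a 2.15-fold difference, on 1 probe set each. *Id2* was at 713 and 1118, 1.57-fold, and did not pass on any of its probe sets. *Id1* lay close to the threshold, and its CC/SFZ ratio was under 2 after either scaling of the arrays.

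In the RefSeq promoter table of GRCm38.p6, 36 pathway genes were searched, and 10 of these were among those higher in CC. The windows run from 250 bases before each gene start to 50 after it. The 3 Id genes in the table and *Grem1* are shown, because they belong to groups with low median ratios. They are given as the 250 bases before the start, read 5′ to 3′ on the strand of the gene. The intervals are chr12:25096093-25096342 on the minus strand, chr4:136143572-136143821 on the plus strand, chr13:48260866-48261115 on the plus strand and chr2:113758649-113758898 on the minus strand. Capitals mark GGCGCC, a GC-rich element bound by Smad1 and Smad5, and CAGAC or its reverse complement GTCTG, the short Smad box.
Id2: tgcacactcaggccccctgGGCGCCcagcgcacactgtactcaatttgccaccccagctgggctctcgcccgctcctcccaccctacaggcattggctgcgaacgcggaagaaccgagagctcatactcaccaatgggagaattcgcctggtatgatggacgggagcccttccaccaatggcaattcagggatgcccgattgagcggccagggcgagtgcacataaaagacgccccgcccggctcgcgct
Id3: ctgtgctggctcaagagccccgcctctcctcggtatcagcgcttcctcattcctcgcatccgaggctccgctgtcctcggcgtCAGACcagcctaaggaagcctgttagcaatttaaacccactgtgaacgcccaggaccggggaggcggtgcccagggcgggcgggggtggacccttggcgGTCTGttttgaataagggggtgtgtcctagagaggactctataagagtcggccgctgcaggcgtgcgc
Id4: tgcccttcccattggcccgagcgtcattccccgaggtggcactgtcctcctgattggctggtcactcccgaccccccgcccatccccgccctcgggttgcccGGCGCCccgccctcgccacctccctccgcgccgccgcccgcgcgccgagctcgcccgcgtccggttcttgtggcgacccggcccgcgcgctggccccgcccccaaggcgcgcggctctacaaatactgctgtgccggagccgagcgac
Grem1: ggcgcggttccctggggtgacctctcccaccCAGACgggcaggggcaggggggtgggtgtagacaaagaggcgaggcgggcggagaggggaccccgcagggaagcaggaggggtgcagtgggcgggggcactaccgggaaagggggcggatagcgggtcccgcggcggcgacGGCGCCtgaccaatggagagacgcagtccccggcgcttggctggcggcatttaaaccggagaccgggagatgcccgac
GGCGCC lay 231 to 226 bases before the start in *Id2*, 148 to 143 in *Id4* and 78 to 73 in *Grem1*, and was not in the window of *Id3*. Searched over the whole window, GGCGCC, which is its own reverse complement, was in 3 of the 10 genes higher in CC and in 9 of the 26 others, beside 11.9% of all 32851 windows. CAGAC on either strand was in 5 of the 10 and in 16 of the 26, beside 49.6% of all windows. A gene counted if any of its windows matched, and some genes have several, so counts of genes and shares of windows are in unlike units. GTCTAGAC is the palindromic Smad3 and Smad4 site, also its own reverse complement. Pathway genes outside the search have no result for it. Among the 36 searched it was in *Smad6* alone, beside 0.213% of all windows. There it begins 4 bases before the start and runs across it, within chr9:64022045-64022074 on the minus strand, and that interval is shown with the palindrome in capitals because *Smad6* was also among the genes higher in CC.
Smad6: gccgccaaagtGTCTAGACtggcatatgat
Such matches are letters in a window and do not show binding.

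Among the BMP and GDF ligands, *Bmp4* alone passed. *Bmp4*, a BMP of early cartilage and bone formation, was at 233 in SFZ cells against 655 in CC, 2.81-fold higher in CC on its only probe set. The other 5 measured ligands lay within 1.5-fold. *Bmp2* was at 86.3 in SFZ cells against 79.8 in CC, and *Bmp6* at 62.6 and 79.9. *Bmp7* was at 75.7 and 75.1 on its brightest probe set. *Bmp5*, the ligand mutated in short ear mice, was at 414 and 428, and its 3 probe sets ran from 1.03-fold to 1.25-fold toward CC. *Gdf10*, also called BMP3b, was at 194 and 210. The median log2 ratio of the 6 was -0.08, or 0.13 above that of all genes.
The TGF-β isoforms had unlike ratios. *Tgfb1* was close to equal at 45.8 in SFZ cells against 42.7 in CC, with both signals under the minimum. *Tgfb2* was at 517 and 1075, 2.08-fold higher in CC, and its 4 probe sets ran from 1.81-fold to 2.11-fold, so that 2 passed and 2 did not. *Tgfb3* was at 65.9 and 443, 6.73-fold higher in CC on its only probe set. *Inhba*, which encodes the subunit of activin A, was at 177 and 257, and *Inhbb*, the subunit of activin B, was at 64.1 and 48.6 on its brightest probe set. The other probe set of *Inhbb* ran against it, at 12.3 in SFZ cells, under background, and 75.3 in CC, or at least 2.67-fold higher in CC.

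Of the 3 latent TGF-β binding protein genes, 2 were higher in CC. *Ltbp2*, a microfibril protein that itself does not bind latent TGF-β, was at 114 in SFZ cells against 597 in CC, 5.24-fold higher in CC on 1 probe set. *Ltbp1*, which anchors latent TGF-β in the matrix, was at 311 and 680, a 2.18-fold difference. *Ltbp3*, the other carrier of latent TGF-β, was at 1793 and 2415, and its 4 probe sets ran from 1.06-fold to 1.35-fold. *Ltbp1* had another probe set above background in CC alone, at 10.6 and 34.1.

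**Figure D4:**
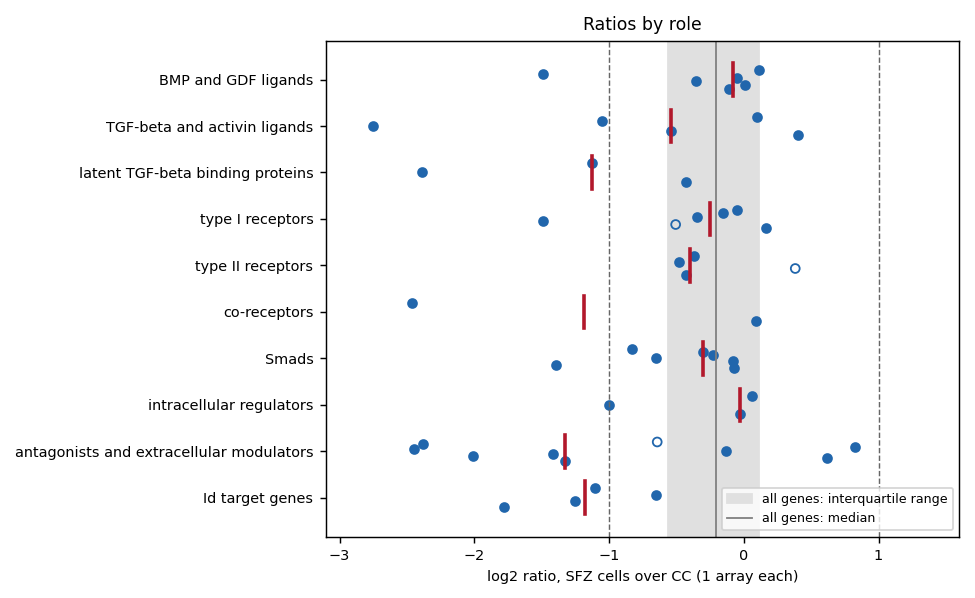
Log2 SFZ/CC ratios by role, for the 49 genes above background on at least 1 array. Red bars are medians of a role, the grey band and line give the quartiles and median of all named genes, dashed lines mark a ratio of 2, and the open circles of *Acvrl1*, *Acvr2b* and *Nog* are bounds with the dim signal raised to background. Outside the band lie the medians of antagonists, at -1.33, and of co-receptors, at -1.19. Those of the Id genes, at -1.18, and of latent TGF-β binding proteins, at -1.13, also lie outside the band. Those of BMP and GDF ligands, type I receptors and Smads lie inside the band. The co-receptor median is the midpoint of only 2 genes, *Tgfbr3* at -2.46 and *Eng* at 0.09, and *Eng* lies inside the band.

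*Bmpr1a*, *Bmpr1b*, *Acvr1* and *Bmpr2*, receptors of the BMP branch, had like signals on both arrays. *Bmpr1a*, a type I receptor needed for chondrogenesis, was at 1011 in SFZ cells against 1048 in CC, and its 5 probe sets above background on both arrays ran from 1.07-fold toward CC to 1.44-fold toward SFZ cells. *Bmpr1b*, the preferred type I receptor of GDF5, was at 64.2 and 71.5, and *Acvr1*, another type I receptor of BMPs, at 623 and 793. *Bmpr2*, a type II receptor of BMPs, was at 909 and 1172. The TGF-β receptor pair was near equal as well, with *Tgfbr1* at 1284 and 1145 and *Tgfbr2* at 2375 and 3206.
The activin type I receptor gene *Acvr1b* was the exception among kinase receptors, at 189 in SFZ cells against 533 in CC, 2.82-fold higher in CC. Its second probe set had the opposite order, at 30.2 in SFZ cells, close to background, and 9.27 in CC, under it. The type II receptor *Acvr2a* was at 241 and 336. *Acvr2b* was above background in SFZ cells alone, at 34.1, or at least 1.30-fold higher there, and its other 2 probe sets were under background on both arrays. No type II receptor passed, and of 6 type I receptors only *Acvr1b* did.
The co-receptors had unlike ratios. *Tgfbr3*, encoding betaglycan, which presents TGF-β2 to its receptors and also binds inhibin, was at 211 in SFZ cells against 1165 in CC, 5.52-fold higher in CC. On its second probe set it was above background in CC alone, at 82.9 against 12.8. *Eng*, encoding the co-receptor endoglin, was at 210 and 197, and *Acvrl1*, an endothelial type I receptor, was above background in CC alone, at 40.0, or at least 1.42-fold higher. Both are best known from endothelial cells, and of 9 endothelial markers 0 passed in either direction. None of the 9 had a signal over 100 on either array, so none could pass. All 6 of them above background had the higher signal in CC. The summed signal of these markers was 118 in SFZ cells and 275 in CC, and *Esam* alone was above background on both arrays. Another 5 were above background in CC alone, with *Cldn5* at 8.89 and 57.6, *Cdh5* at 13.5 and 46.8, *Emcn* at 22.5 and 43.4, and *Kdr* and *Pecam1* close to that level at 26.6 and 26.4 in CC. The other 3, *Vwf*, *Tek* and *Tie1*, were under background on both arrays. The part of endothelial cells in these values was not tested.

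Receptor-activated Smads were measured close to equal or moderately toward CC, and none of them passed. *Smad1* was at 589 in SFZ cells against 1044 in CC, and its 3 probe sets ran from 1.44-fold to 1.81-fold toward CC. *Smad5* was at 296 and 366. *Smad9* was under background on both arrays, at 24.3 and 17.7, and has no ratio. In the TGF-β branch, *Smad3* was at 418 and 658, 1.58-fold, with its 3 probe sets close together and the highest at 1.58-fold, and *Smad2* was at 448 and 524. *Smad4*, common to both branches, was at 1500 and 1586.
The inhibitory Smads had unlike ratios as well. *Smad6*, which blocks mainly the BMP branch, was at 176 in SFZ cells against 463 in CC, 2.62-fold higher in CC on 1 probe set. *Smad7*, which blocks both branches, was at 118 and 124 on its brightest probe set, but at 110 and 59.7 on the other, a ratio of 1.84 toward SFZ cells, the widest disagreement in these genes between probe sets above background on both arrays. That other probe set is of a type that can bind further transcripts. Of the ubiquitin ligases that act on Smads and receptors, *Smurf1* was at 91.6 and 87.9, and *Smurf2* was at 405 and 808, a ratio of 1.996 that lay just under the threshold, while its other probe sets, at 315 and 464 and at 254 and 406, gave lower ratios down to 1.47. *Skil*, encoding the corepressor SnoN, was at 492 and 501.

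**Figure D5:**
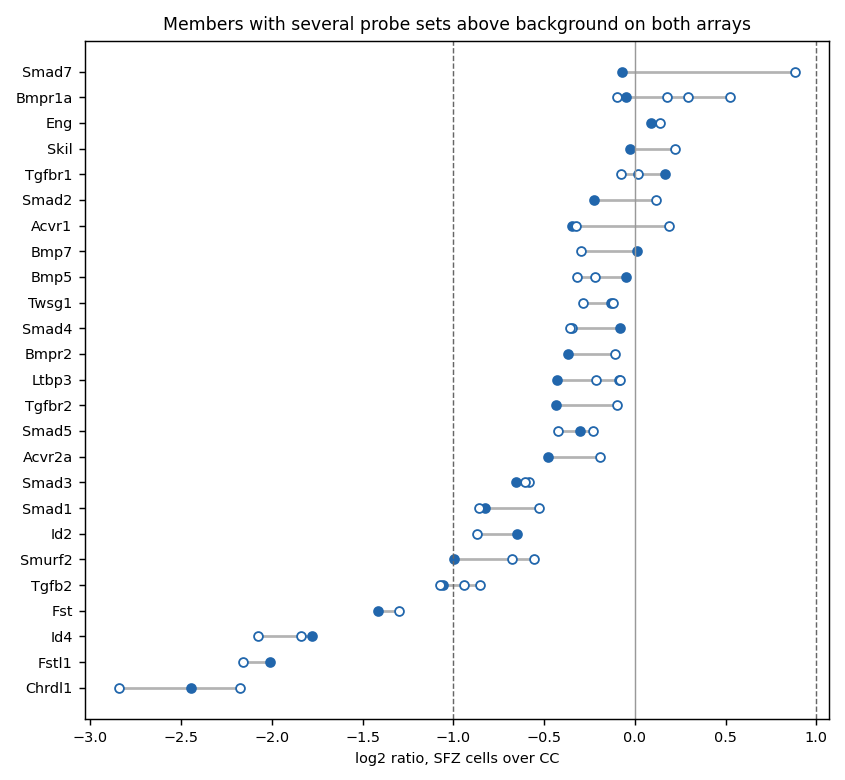
Log2 ratios of every probe set above background on both arrays, for the 25 pathway genes with at least 2 of them, with filled circles for the brightest probe set. *Chrdl1*, *Fstl1*, *Id4* and *Fst* lie left of the dashed line at a CC/SFZ ratio of 2 on each of these probe sets, the 4 probe sets of *Tgfb2* lie close to the line on both sides of it, those of *Smurf2* run from -0.997 to -0.56, and *Smad7* shows the widest gap, from -0.07 to 0.88.

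Grouped by the side of the cell at which the products act, 9 of 22 extracellular members and 3 of 13 membrane proteins were higher in CC. So were 1 of 11 intracellular members and 3 of 4 Id genes. The share over all named genes was 5.41%, and 11.0% among those with a signal over 100 on either array. Members with such a signal numbered 14, 10, 9 and 4 in these groups. *Bambi* is counted here with the membrane proteins. Of the 46 genes above background on both arrays, 24 lay within 1.5-fold and 16 passed in CC, of which 6 had a ratio over 4. Those 6 were *Tgfb3*, *Tgfbr3*, *Chrdl1*, *Ltbp2*, *Grem1* and *Fstl1*. Their log2 ratios, from -2.75 to -2.01, were followed by *Id4* at -1.78 and by *Acvr1b* and *Bmp4* at -1.49. The 5 values from -2.75 to -2.38 lay within 2 such SDs of each other, and their order is not resolved by these probe sets.

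Another 88 genes of the pathway were listed for context, and 78 had a probe set of their own. Of these, 6 were higher in CC, or 7.69%, and 0 were higher in SFZ cells, beside 5.41% and 1.18% of all named genes. The 6 included 5 extracellular proteins, and 26 of the 78 genes were listed as extracellular modulators. *Fbn2*, encoding the microfibril protein fibrillin-2, was at 332 in SFZ cells against 1385 in CC, 4.17-fold higher. *Nbl1*, encoding a BMP antagonist of the DAN family, was at 35.5 and 145, and *Bmper*, a BMP-binding endothelial regulator, at 176 and 698. *Bmp1*, a procollagen protease that also cleaves chordin, was at 63.6 and 190, and *Ltbp4* at 53.1 and 112. The sixth was *Junb*, an AP-1 factor, at 127 and 300.3. *Gdf5*, the BMP family ligand of joints, was at 93.1 and 74.2. *Cd109*, a TGF-β co-receptor chosen with its values known, was at 455 and 257, 1.77-fold toward SFZ cells. Its ratio was 2.02 with equal medians and 2.10 once the arrays were quantile normalized, so that it passed in SFZ cells under either. The median log2 ratio of the 54 of these genes above background, -0.23, was close to the -0.21 of all genes.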

How the data were processed

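Total RNA of cultured SFZ cells and CC was labelled as cRNA and hybridized to Affymetrix whole-genome mouse arrays, 1 per cell type. The authors deposited 1 linear intensity for each probe set. It is a MAS5 signal according to the submitters' processing notes, and the sources used here state neither the version nor the scaling target. Of 45037 probe sets other than controls, 34945 were annotated to 1 gene, 932 to several and 9160 to none here, and only the first were named. By Entrez identifier 34741 matched RefSeq GRCm38.p6, and 0 symbols needed a change. Each gene was represented by its brightest probe set, by mean log2 signal over both arrays. The thresholds, a signal over 100 and a ratio over 2, follow the study. Where the dimmer signal was under background, the ratio is a bound against that level. All members are accounted for. Of other pathway genes, *Gdf5* and those past the thresholds are named, and of each marker list up to 3 of the brightest genes. Markers named beyond these were chosen with their values known. The members and lists were chosen with earlier results of these data known. The counting was tested on simulated data. The number of arrays limits the precision. Alternatives were 2 scalings, 64 added to both signals, low signals raised to background, other thresholds and other rules for probe sets. Python 3.11.15, numpy 2.4.6, pandas 2.3.3 and matplotlib 3.10.9 were used.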

Additional observations from a re-analysis of the deposited data

How the results depend on the processing

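The 0 genes higher in SFZ cells stayed 0 under all 12 alternatives. Some of these cannot add such a gene by construction. They are a ratio over 3, a minimum signal of 200, the rule of every probe set and low signals raised to background. *Chrd* had an SFZ/CC ratio of 2.02 with equal medians and 2.07 after quantile normalization, and was kept out by the minimum signal. The 16 genes higher in CC became 13 under either scaling, 14 with 64 added to both signals or with the median over probe sets, 11 where every probe set had to pass, 20 at a ratio over 1.5 and 7 at a ratio over 3, and were 16 under the other 5. The stricter ratio lowers the count by construction. Over all named genes the share in CC was 4.14% with equal medians, 3.78% after quantile normalization and 3.67% with 64 added. No such share is given here for the median over probe sets, the rule of every probe set or the changed ratios. The median log2 ratio of -0.43 was -0.245 with equal medians and -0.26 after quantile normalization. Scaling to equal medians moves every log2 ratio by the same amount, set by array medians of 28.1 for SFZ cells and 32.0 for CC. Why the array medians differ was not tested. The gap to all genes ran from -0.29 after quantile normalization to -0.216 with 64 added to both signals. *Tgfb2* and *Ltbp1* also fell under the ratio threshold with 64 added, at log2 ratios of -0.97 and -0.99. The alternatives for the other pathway genes were chosen after seeing the data. Low signals limit *Smad9*, *Nog*, *Chrd*, *Acvrl1* and *Acvr2b*. No paired analysis was possible because each cell type has 1 array.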
